A study of Danio rerio with 16 samples.

Results

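Poly(A) sites with a near-fixed abundance were taken from 3P-Seq libraries of the zebrafish, Danio rerio, made from wild-type animals grown under standard conditions. 3P-Seq sequences the very ends of polyadenylated RNA, so each tag marks the place where a poly(A) tail began. A library each was made from whole embryos of 24 hours post fertilization (hpf), from whole embryos of 72 hpf and from whole, mixed gender adults, and the number of animals behind a library is not stated. The sample labels also carry a formaldehyde protocol, given for the chromatin samples too, and do not say whether the RNA came from fixed material. Tag ends on the same strand were grouped within 10 nt into 90940 sites, each named by its main position, the one that most tags share. Members were chosen by their tag counts: a site was called constant when it had at least 100 tags in each library and its largest CPM (tags scaled to 1000000 per library) was at most 1.5 times its smallest. Sites on the mitochondrial chromosome, on chromosome 4 from 28 Mb and in a 1.5 Mb stretch of chromosome 22 that starts at 25 Mb were left out. This left 3649 sites with the tag minimum, of which 518 were constant (14.2%, 95% Clopper-Pearson interval 13.1% to 15.4%). All intervals here are of that kind. Intervals over a site's tags cover counting error only, and intervals over shares of sites treat the sites as independent draws. A change of a whole library would move many sites together. A share over all sites that lies inside or outside such an interval is therefore described and not tested.

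Most messenger RNAs of animals end where the nascent transcript is cleaved and a poly(A) tail is added, a step carried out by the cleavage and polyadenylation complex. The complex is guided by a hexamer, most often AAUAAA, a short way upstream of the cut, and by U-rich or GU-rich sequence downstream of it. A gene can hold several sites in a row, called tandem sites, and the site used sets how much 3′ untranslated region the messenger keeps. The cut itself can also wander by a few nucleotides within 1 site. The tag count of a site therefore follows both the amount of RNA from its gene and the choice among that gene's sites.

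The 24 hpf library held 7423152 tags, the 72 hpf library 9813481 and the adult library 7470435, and constant sites took 5.81%, 5.71% and 5.44% of them. All 3649 sites with the tag minimum took 66.2%, 65.7% and 46.2%, in the same order. Tags can be copies of the same molecule: an interval with no other interval close by held on average 3.74 tags in the 24 hpf library, 3.52 in the 72 hpf library and 1.23 in the adult library. In whole animals, fewer cells of a type and less RNA per cell cannot be told apart. Sites are given by their position in the danRer7 (Zv9) build, and genes, sequences and tissue markers were not assigned here, because an annotation of that build was not used here. No stage was sequenced more than once, so there are no replicates and no p-values, and every comparison is between these libraries.

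The tag counts that chose the sites are described first, and nothing is tested on them. The median constant site held 36.7, 37.1 and 37.5 CPM in the 24 hpf, 72 hpf and adult libraries, the order used for all values below, within ranges of 13.5 to 7290.7, 10.7 to 5533.8 and 13.4 to 5000.8 CPM. Over all sites with the tag minimum the medians were 52.5, 53.1 and 43.6 CPM. Constant sites thus included very abundant and modest sites alike, and made up between 12.2% and 17.9% of the sites at every level of abundance. Of the sites whose smallest CPM lay below 30, 12.2% were constant (239 of 1961), against 16.6% from 30 to 100 CPM (199 of 1200), 15.9% from 100 to 300 (58 of 365) and 17.9% from 300 up (22 of 123).

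The largest over the smallest CPM had a median of 1.32 over the 518 constant sites and of 2.46 over all sites with the tag minimum, where the highest reached 199.0. Only 31 constant sites stayed within 1.1-fold, while 147 lay between 1.4-fold and the limit. Most sites with the tag minimum spread further: 2395 (65.6%) exceeded 2-fold, 883 (24.2%) exceeded 4-fold and 172 (4.71%) exceeded 10-fold. Among constant sites, chosen by these same values, the libraries were highest or lowest at roughly similar numbers of sites. The 24 hpf library was highest at 182 of them, the 72 hpf library at 159 and the adult library at 177 (35.1%, 30.7% and 34.2%). Over the other sites with the tag minimum these shares were 38.1%, 33.3% and 28.6%. The libraries were lowest at 166, 194 and 158 constant sites (32.0%, 37.5% and 30.5%), beside 21.4%, 30.1% and 48.5% of the other sites.

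**Figure D1:**
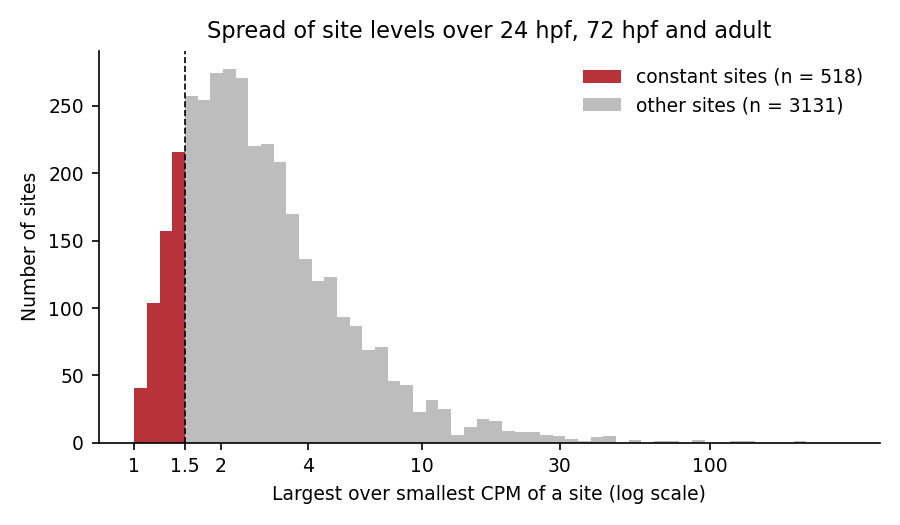
Histogram of the largest over the smallest CPM (log x axis) of the 3649 sites with at least 100 tags in each library, as numbers of sites, with the 518 constant sites in red and the dashed line at the limit of 1.5. The constant sites are the left flank of a single broad distribution with a median of 2.46, and no gap parts them from the other sites.

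The limit fell in a dense part of that distribution. Just inside it, the minus-strand site at 30047197 on chromosome 25 held 74.5, 98.7 and 65.9 CPM. Beside it, the plus-strand site at 22243497 on chromosome 14 held 38.7, 39.1 and 58.0 CPM, and the minus-strand site at 43496841 on chromosome 5 held 14.0, 21.0 and 15.3. Just outside it, the plus-strand site at 34388031 on chromosome 9 held 19.3, 12.8 and 14.9 CPM. Next followed minus-strand sites at 23890533 on chromosome 3 and at 32727656 on chromosome 14, with 196.1, 242.4 and 161.6, and 83.8, 55.8 and 74.0. Members and non-members at this edge cannot be separated by these counts. The interval of the ratio stayed at or below 1.5 for 207 of the 518 constant sites, and for 107 once tags were divided by the tags per lone interval of their library. Of the 3131 other sites, 388 had an interval reaching down to 1.5 or lower, and 651 after that division.

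How constant a site looked also depended on how the libraries were scaled. Scaling by the median ratio over sites with tags in every library moved every log2 ratio by -0.24 for 72 hpf over 24 hpf, by 0.73 for adult over 72 hpf and by 0.49 for adult over 24 hpf. Under it 429 sites were constant, and 135 of them were among the 518 (31.5% of the 429 and 26.1% of the 518). Scaling by the median ratio over the sites with at least 100 tags in each library, chosen after seeing the data, moved the ratios by 0.12, 0.20 and 0.31 and gave 512 constant sites, of which 359 were among the 518 (70.1% and 69.3%). In all, 130 of the 518 (25.1%) were constant under all 3 scalings, which is 3.56% of the sites with the tag minimum. Their median CPM was 35.8, 39.3 and 30.3, and 115 of them were lowest in the adult library while none was highest there. The scalings themselves favour this pattern, because each median ratio raises the adult library over each embryo library. A site already highest in the adult by library sum is moved further from the limit, and a site lowest there is evened out. The low adult level is therefore not read as a trait of these sites. The label "constant" is therefore used below for the library-sum scaling only. Some of the sites that keep it under all 3 scalings are pointed out, and a site without this remark may keep it too.

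Among the 10 most abundant constant sites, the first was the minus-strand site at 34306761 on chromosome 14, with 7290.7, 5533.8 and 5000.8 CPM. Its levels were highest in the 24 hpf library and its ratio of 1.46 (interval 1.44 to 1.48) was close to the limit. The plus-strand site at 13398512 on chromosome 11 held 3752.9, 4200.8 and 3061.7 CPM and was the most abundant site that stayed constant under all 3 scalings. Next came the plus-strand site at 34236080 on chromosome 19, with 2060.0, 2686.8 and 2252.6 CPM. The flattest of the 10 was the plus-strand site at 19053504 on chromosome 16, with 2219.4, 2015.6 and 2127.5 CPM and a ratio of 1.1 (1.08 to 1.12). On the same chromosome, the minus-strand site at 26429327 held 1707.4, 1395.7 and 1369.3 CPM.

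The other 5 held between 886.4 and 1639.6 CPM, and each stayed constant under all 3 scalings. These were the minus-strand site at 40520891 on chromosome 3, with 1353.9, 1432.1 and 1165.4 CPM, and the plus-strand site at 23143174 on chromosome 14, with 1342.7, 1639.6 and 1141.8. On the minus strand, the site at 7725189 on chromosome 1 held 1132.8, 1404.9 and 1140.5 CPM and the site at 57952806 on chromosome 9 held 1301.6, 1131.5 and 952.2. Last in the list was the plus-strand site at 59052830 on chromosome 3, with 886.4, 1173.9 and 908.5 CPM. With 30 to 81 distinct intervals per library, each of these 10 sites rested on many different tag forms.

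**Figure D2:**
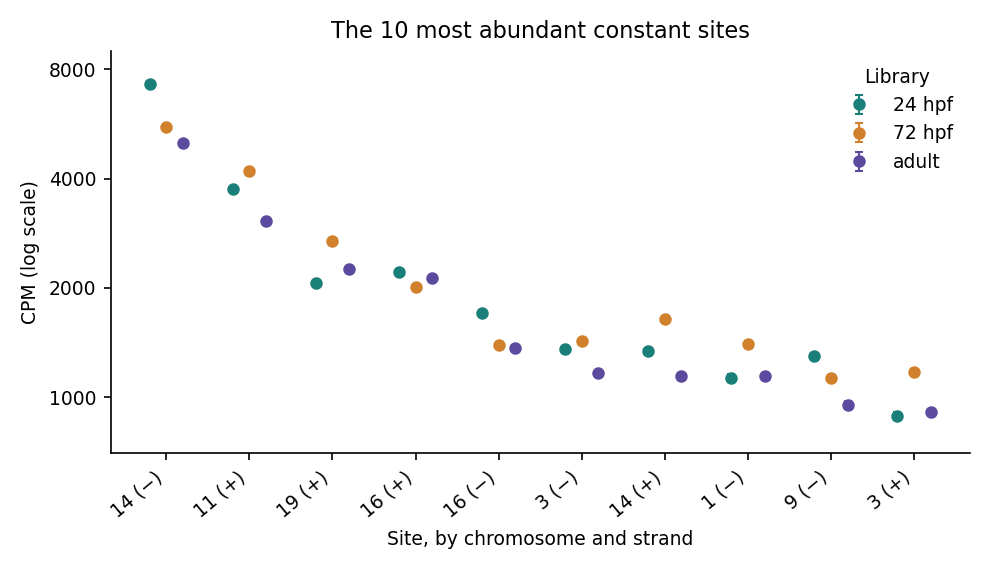
CPM (log y axis) of the 10 most abundant constant sites in the 24 hpf, 72 hpf and adult libraries, 1 point per library, with 95% counting intervals as bars that are mostly smaller than the points. All values lie between 886.4 and 7290.7 CPM, and no site has a largest value above 1.5 times its smallest.

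The flattest sites were of modest abundance. The minus-strand site at 43048206 on chromosome 20 held 49.0, 49.5 and 49.3 CPM, a ratio of 1.01 (0.880 to 1.16). The minus-strand site at 37462950 on chromosome 6 held 65.3, 65.7 and 66.5 CPM, and the plus-strand site at 16515618 on chromosome 2 held 33.1, 32.5 and 33.1. On chromosome 10, the minus-strand sites at 44591517 and 20608633 held 37.9, 38.5 and 38.7, and 48.8, 47.6 and 49.0 CPM. The differences within each of these sites were smaller than counting error. The most abundant of the 10 flattest was the plus-strand site at 25804489 on chromosome 5, with 124.3, 125.6 and 121.9 CPM and a ratio of 1.03 (0.945 to 1.12). The remaining 4 were a plus-strand site at 14256218 on chromosome 15 and minus-strand sites at 59387625 on chromosome 7, 693528 on chromosome 9 and 49707858 on chromosome 16, with ratios of 1.04, 1.04, 1.05 and 1.05. None of these 10 remained constant with the median ratio over sites with tags in every library, which by construction moves a flat site by up to 0.73 on the log2 scale. All 10 remained so with the median ratio over sites with the tag minimum.

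Where the RNA was cut within a site was not used to choose the sites. The position with the most tags was the same in every library at 456 of the 518 constant sites, or 88.0% (84.9% to 90.7%), beside 89.1% over all sites with the tag minimum, which lies within that interval. The main position held a median of 81.3% of a constant site's tags in the 24 hpf library, 81.0% in the 72 hpf library and 79.9% in the adult library, against 81.2%, 81.2% and 80.3% over all sites. At least 90% of the tags lay there at 179, 187 and 167 constant sites (34.6%, 36.1% and 32.2%, beside 36%, 36.4% and 34.2% of all sites). Under 50% lay there at 62, 59 and 65 (12.0%, 11.4% and 12.5%, beside 11.6%, 11.3% and 12.5%). Constant sites had a median of 7 positions, from 1 to 16, and 149 of them (28.8%, all sites 30.2%) had only 1 position with at least 5% of the tags. Constant abundance thus came with sharp and with spread cleavage alike.

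**Figure D3:**
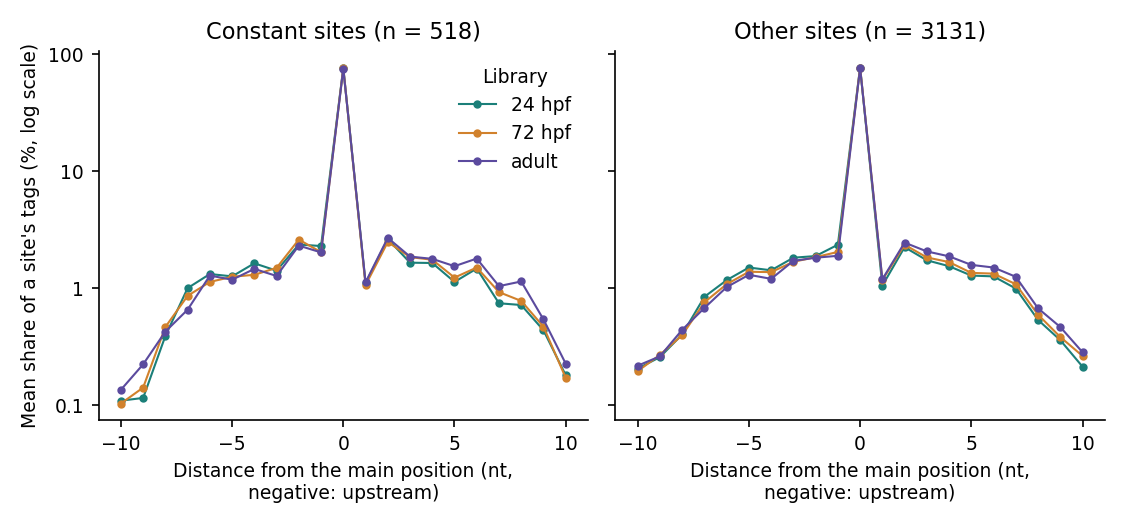
Mean share of a site's tags (%, log y axis) against distance from its main position in nt, for the 518 constant sites (left) and the 3131 other sites with the tag minimum (right), 1 line per library. At constant sites 76.4%, 76.4% and 75.3% of the tags lay at distance 0 in the 24 hpf, 72 hpf and adult libraries, and at most distances from 5 nt downstream on the adult line runs slightly above the embryo lines.

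The most abundant sites showed both forms. On chromosome 11, the plus-strand site at 13398512 had 99.6%, 99.4% and 99.1% of its tags at the main position, and at the chromosome 14 minus-strand site at 34306761 the shares were 96.0%, 97.5% and 97.5%. Cutting at 34236080 on the plus strand of chromosome 19 was split between neighbouring nucleotides, with 62.0%, 55.4% and 61.9% at the main position and 34.2%, 40.3% and 33.9% at 1 nt upstream. At the last of these the 72 hpf library differed from the other two by more than counting error. Another split site, on the minus strand of chromosome 1 at 7725189, had 64.2%, 58.0% and 59.1% at the main position and 35.3%, 41.8% and 40.2% at 2 nt downstream. At the plus-strand site at 23143174 on chromosome 14, by contrast, the main share was 92.8%, 82.4% and 76.1%, and the share 7 nt downstream was 6.31%, 16.8% and 22.5%. At 40520891 on the minus strand of chromosome 3 the main share was likewise lowest in the adult library, with 86.8%, 82.0% and 72.7%. Both of these stayed in abundance within 1.44-fold while the place of cutting differed by more than its counting error.

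The fewest positions were seen at a minus-strand site at 31523813 on chromosome 9, whose tags all ended at 1 position in each library. The most, 16 each, were seen at the sites at 34306761 on chromosome 14 and 40520891 on chromosome 3. Many positions did not mean spread cutting, as 34306761 had 96.0%, 97.5% and 97.5% of its tags at the main position. Positions were also few at the minus-strand site at 38056231 on chromosome 22, but its 337, 553 and 293 tags came from only 2 distinct intervals in each library. Over all constant sites the median number of distinct intervals was 14, 15 and 21, beside 15, 17 and 21 over all sites with the tag minimum. Fewer than 5 in a library were seen at 8 constant sites (1.54%), beside 46 of all 3649 sites (1.26%).

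Between libraries, a median of 7.33% of a constant site's tags lay at another position at 72 hpf than at 24 hpf, with 7.03% for adult against 72 hpf and 7.59% for adult against 24 hpf. Over all sites with the tag minimum these medians were 6.16%, 6.28% and 7.34%. Counting error and copied tags raise this share even where the place of cutting is the same, and their part in it was not tested. Neither the medians nor the differences between constant sites and all sites are therefore read as movement of the cut. The main share moved by at least 20 percentage points between any pair of libraries at 60 of the 518 constant sites (11.6%, 8.96% to 14.7%), beside 12.2% of all sites. With at least 400 tags in each library, such moves were seen at 5 of 172 constant sites (2.91%, 0.950% to 6.65%) and 66 of 1038 sites overall (6.36%), and with at least 1000 tags at 1 of 64 and 21 of 375. Large moves were thus mostly seen at sites with few tags, among constant sites and overall. Of the 60 sites, 28 had their highest main share in the 24 hpf library, 17 in the 72 hpf library and 15 in the adult library (46.7%, 28.3% and 25%, beside 41.6%, 23.8% and 34.6% of all 445 such sites).

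Some sites kept their abundance by library sum while the shares of their positions differed between libraries. Neither of the sites given here stayed constant with the median ratio over sites with tags in every library. The flattest of all, on the minus strand of chromosome 20 at 43048206, had 39.6% of its tags at the main position in the 24 hpf library (34.5% to 44.8%), 53.1% in the 72 hpf library and 73.6% in the adult library (68.8% to 78.1%). Its share at 4 nt downstream was 34.1%, 32.3% and 18.2%, and at 3 nt downstream 20.3%, 8.02% and 5.71%. The main position thus held more of the tags in each later library while the summed level differed by 1.01-fold. At the flat minus-strand site at 693528 on chromosome 9 the shares were 43.3%, 53.3% and 44.3% at the main position and 46.6%, 40.2% and 47.7% at 6 nt upstream. At 24 hpf the intervals of these positions overlapped (38.5% to 48.1% and 41.7% to 51.5%). They overlapped in the adult library too (39.4% to 49.2% and 42.8% to 52.6%), so neither position can be called the leading one in either library. Only at 72 hpf did the main position lead by more than counting error. The interval of its share there (48.9% to 57.6%) lay above that of 24 hpf but overlapped that of the adult library.

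Of the 64 constant sites with at least 1000 tags in each library, 2 had a different leading position between libraries. The share over all sites with that many tags is not given here, so the count is not read as particular to constant sites. Both were constant under all 3 scalings. The plus-strand site at 13828561 on chromosome 20 held 140.6, 164.0 and 142.0 CPM, with 55.3%, 52.0% and 38.2% at the main position and 32.8%, 39.5% and 43.0% at 1 nt downstream. In the adult library the next nucleotide had the larger share, but the intervals of these shares overlapped there. On chromosome 16, the minus-strand site at 50601114 held 159.9, 191.9 and 142.0 CPM, with 28.5%, 37.5% and 36.7% at the main position and 42.0%, 27.2% and 29.1% at 7 nt upstream. There the 24 hpf library differed from the other two.

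The 5 constant sites with at least 400 tags in each library whose main share moved most were picked after their values were seen. The plus-strand site at 36565404 on chromosome 19 had 42.5%, 64.4% and 73.8% at the main position, with 24.9%, 20.1% and 11.3% at 10 nt upstream and 21.8%, 5.69% and 2.09% at 4 nt upstream. Its level was 103.9, 111.0 and 153.8 CPM, close to the limit. On chromosome 15, the plus-strand site at 36248749 had a nearly fixed level of 76.5, 84.6 and 83.4 CPM, and its main share was 93.3%, 86.0% and 65.2%, with 5.81%, 9.64% and 31.9% at 1 nt downstream. At 40975045 on chromosome 16, a minus-strand site went the same way, from 90.2% and 83.5% in the embryo libraries to 68.1% in the adult, with 7.56%, 11.6% and 22.2% at 3 nt downstream. At the minus-strand site at 34393494 on chromosome 14 the share 8 nt downstream was 26.8%, 28.5% and 45.8%. On the unplaced scaffold Zv9_NA89, the plus-strand site at 87527 had 22.8%, 31.1% and 45.4% at the main position and 45.9%, 30.5% and 24.7% at 6 nt upstream. In each of these 5 the adult library had more of its tags at the more downstream positions than the 24 hpf library.

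This direction was followed over all sites by their mean place of cutting, a measure added after these values were seen. It lay further downstream in the adult than at 24 hpf at 330 of the 518 constant sites (63.7%, 59.4% to 67.9%), beside 64.3% of all sites with the tag minimum. For adult against 72 hpf it did so at 310 (59.8%, background 58.9%), and for 72 hpf against 24 hpf at 291 (56.2%, background 57.9%). Most constant sites were thus cut slightly further downstream in the adult library than in the 24 hpf library, as were most other sites, and the median change was 0.0864 nt. Of the 60 constant sites whose main share moved by at least 20 points, 43 were cut further downstream in the adult than at 24 hpf (71.7%, background of such sites 69.4%). The 3 comparisons share libraries and are not independent. The intervals at constant sites had a median length of 27.9 nt in both embryo libraries and 28.3 nt in the adult library, and the part of length in this measure was not tested. Exceptions include 2 sites already described, on the minus strand of chromosome 20 at 43048206, whose mean lay 1.98 nt downstream of the main position at 24 hpf and 0.899 nt in the adult, and on the minus strand of chromosome 3 at 40520891, where it lay at -0.595 nt at 24 hpf and further upstream, at -0.927 nt, at 72 hpf, and further still in the adult.

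The RNA ends around a constant site were not used directly to choose it, so it was asked whether they were as even. They can be other ends of the same gene, whose amount of RNA the site's tags also follow, and genes were not assigned here. The comparisons of neighbours with those of all sites may therefore not be independent of the choice of sites. On the same strand, 454 of the 518 constant sites (87.6%, all sites 89.2%) had at least 1 other site within 5000 nt. The constant site held a median of 96.0%, 96.8% and 96.1% of the tags of that stretch, close to the 96.6%, 97.2% and 96.1% of all sites with the tag minimum. It held under 50% of them at 45, 48 and 42 sites (8.69%, 9.27% and 8.11%, beside 8.44%, 8.25% and 9.59%). The neighbours summed to at least 20 tags in each library at 190 constant sites, and their sum was itself within 1.5-fold at 30 of these (15.8%, 10.9% to 21.8%), beside 11.5% (153 of 1334) around all sites with the tag minimum. The background lies within that interval. The neighbours' largest over smallest CPM had a median of 2.33 around constant sites and 2.64 around all sites, and exceeded 2 at 112 constant sites (58.9%, 51.6% to 66.0%), beside 69.0% of all sites, a background that lies above the interval. It exceeded 4 at 42 constant sites (22.1%, 16.4% to 28.7%, background 29.0%, just above it) and 10 at 11 (5.79%, background 5.70%). Neighbours thus spread past 2-fold around most constant sites, and around a larger share of all sites.

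**Figure D4:**
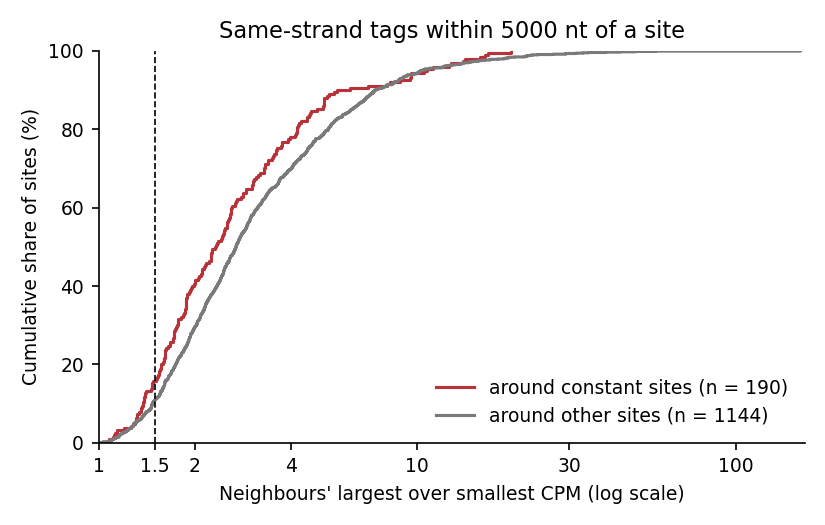
Cumulative share of sites (%) against the largest over the smallest CPM of the summed same-strand neighbours within 5000 nt (log x axis), for neighbours with at least 20 tags in each library, around 190 constant sites in red and around the other sites in grey. The dashed line marks 1.5, below which 15.8% of the red curve lies, and between 1.5 and 4 the red curve runs above the grey one. The median was 2.33 around constant sites and 2.64 around all sites, constant ones included.

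The most uneven surroundings, picked after their values were seen, were highest in different libraries. Around the minus-strand site at 32016579 on chromosome 3, which held 26.3, 21.0 and 25.8 CPM, the neighbours summed to 27.9, 40.6 and 455.0 CPM. Around the plus-strand site at 19170540 on chromosome 22, with 83.7, 68.3 and 93.2 CPM, they summed to 3.23, 5.50 and 63.5. Both surroundings were high in the adult library alone. The reverse held for the plus-strand site at 56976833 on chromosome 2, with 14.4, 12.6 and 15.0 CPM, whose neighbours summed to 50.9, 3.06 and 5.49 and were highest at 24 hpf. Among the 10 most abundant sites, the plus-strand site at 23143174 on chromosome 14 had the most uneven surroundings, at 15.6, 6.11 and 65.6 CPM, still far below its own level. Over the 190 sites the neighbours were highest at 24 hpf at 64 (33.7%, 27.0% to 40.9%, background 41.2%), at 72 hpf at 52 (27.4%, background 27.1%) and in the adult at 74 (38.9%, 32.0% to 46.3%, background 31.7%). The 24 hpf and adult backgrounds lie just outside these intervals. Constant sites themselves were less often lowest in the adult library (30.5%) than the other sites (48.5%). The part of that choice in the neighbours' levels was not tested.

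Tandem sites were examined as pairs of adjacent sites on the same strand, 50 to 5000 nt apart, with at least 20 tags over the pair in both libraries of a comparison. A pair had exactly 1 constant site in 465 cases and 2 constant sites in none, and the neighbour lay downstream in 206 and upstream in 259, at a median distance of 275 nt. The downstream share is the part of a pair's tags at its downstream site, and a shift is a change of that share by at least 20 percentage points. This share is taken within a library, so scaling enters it only through the choice of the sites. From 24 hpf to 72 hpf, 4 of the 465 pairs shifted (0.860%, 0.235% to 2.19%), beside 0.832% of all 3124 pairs that have a site with the tag minimum. Between 72 hpf and the adult, 28 shifted (6.02%, 4.04% to 8.59%), beside 3.43%, and between 24 hpf and the adult 26 (5.59%, 3.68% to 8.09%), beside 3.46%.

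The shifts with the adult mostly went toward the upstream site. Against 72 hpf, 25 of the 28 pairs had more of their tags upstream in the adult library, and against 24 hpf 24 of the 26, while over all pairs it was 94 of 107 and 90 of 108. The adult library is common to these comparisons, so they are not independent of each other. Among the 25 pairs the constant site was the upstream one in 11 and the downstream one in 14. The constant site was chosen to differ little between libraries, so a shift has to come mostly from its neighbour. A shift upstream then takes a lower neighbour where it lies downstream (11 pairs) and a higher one where it lies upstream (14). This split only restates which site of the pair was constant. The shares of shifted pairs differed between settings. With the median ratio over sites with tags in every library the shares were 0%, 3.60% and 3.08%. With at least 400 tags in each library 1.86% of pairs shifted against the adult in either comparison. That setting also raises the number of tags, and its share over all pairs is not given. Depth and the choice of sites therefore cannot be told apart there.

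Where both sites of a pair had at least 20 tags in each library, 40 pairs remained, and 5 of their 40 neighbours were within 1.5-fold (12.5%, 4.19% to 26.8%), beside 12.3% of the tandem neighbours of all sites with the tag minimum. The median largest over smallest CPM of the 40 neighbours was 3.44, against 2.64. The downstream share was lower in the adult than at 72 hpf in 29 of the 40 (72.5%, background 72.3%) and lower than at 24 hpf in 26 (65%, background 65.3%), with median changes of -7.08 and -3.56 percentage points. At 72 hpf it was lower than at 24 hpf in 19 of the 40 (background 42.7%). Pairs with a constant site thus had a balance of directions close to the background. Of the 16 neighbours lying downstream, 11 were lowest in the adult, and of the 24 lying upstream, 13 were highest there. The same counts over the tandem neighbours of all sites with the tag minimum are not given here. These 2 counts are therefore not read as particular to constant sites.

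**Figure D5:**
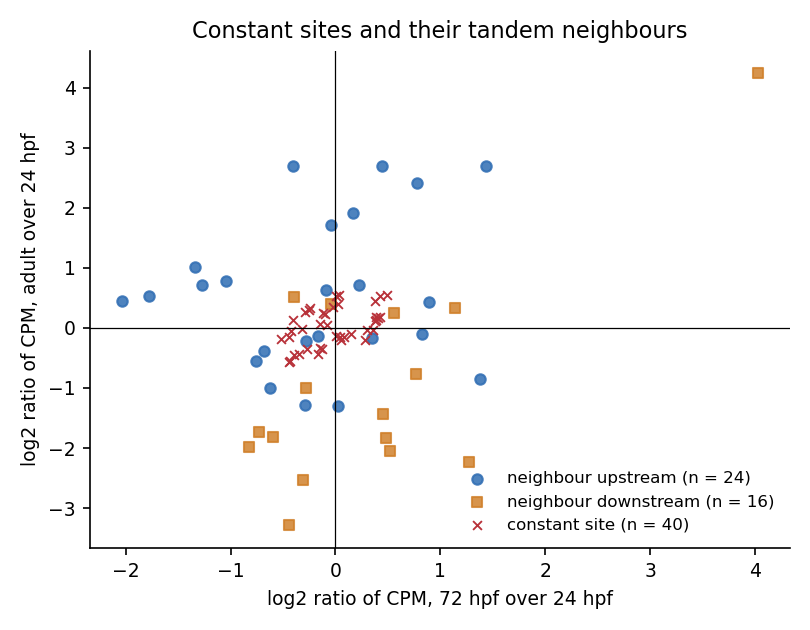
log2 ratio of CPM in the adult over 24 hpf (y axis) against that at 72 hpf over 24 hpf (x axis), for the 40 tandem neighbours with at least 20 tags in each library (circles upstream, squares downstream) and for the constant site of each pair (crosses). The crosses crowd around 0 because the sites were chosen so, and the neighbours spread in all directions, with a median largest over smallest CPM of 3.44.

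The next pairs were chosen for the unevenness of their neighbours, the 5 most uneven of the 15 neighbours with at least 100 tags in each library, or for at least 1000 tags of the neighbour in a library, and they do not stand for all pairs. On the minus strand of chromosome 16, the constant site at 34037412, which stayed constant under all 3 scalings, held 18.7, 18.9 and 17.0 CPM. The more abundant site 97 nt downstream, at 34037315, held 112.1, 90.3 and 19.4 CPM, 5.77-fold lower in the adult than at 24 hpf (4.84 to 6.94). The downstream share was 85.7%, 82.7% and 53.3%, so the embryo libraries had mostly the downstream end and the adult library both ends about equally. On the plus strand of chromosome 14, the constant site at 31670900 held 201.0, 257.9 and 196.9 CPM, and the site 277 nt downstream, at 31671177, held 130.4, 179.0 and 48.1, a spread of 3.73-fold (3.32 to 4.19). Its downstream share was 39.3%, 41.0% and 19.6%. In this pair too the downstream end was least in the adult library.

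Upstream neighbours were uneven as well. On the minus strand of chromosome 7, the constant site at 67328066 held 338.5, 439.9 and 462.8 CPM, and the site 149 nt upstream, at 67328215, held 43.6, 12.7 and 62.9, with the adult value 4.94 times that of 72 hpf (4.05 to 6.07). On the minus strand of chromosome 18, the site at 43032569 held 24.9, 18.4 and 17.0 CPM, and its neighbour 206 nt upstream held 24.5, 11.9 and 41.9. The downstream share there was 50.4%, 60.7% and 28.9%. These 2 neighbours were highest in the adult library. Others were lowest there: on chromosome 6, the plus-strand site at 52174135 held 63.7, 44.3 and 56.0 CPM and its neighbour 367 nt upstream 156.7, 128.0 and 64.5, and on chromosome 13 the plus-strand site at 19362475 held 17.4, 17.9 and 15.7 CPM and its neighbour 280 nt upstream 263.0, 170.9 and 130.9. In those 2 pairs the downstream share was higher in the adult library, at 46.4% against 28.9% and 25.7%, and at 10.7% against 6.20% and 9.50%. On chromosome 13 the adult interval (8.92% to 12.7%) overlapped that of 72 hpf (8.20% to 10.9%), so that difference is within counting error. On chromosome 3, the minus-strand site at 32016579 had a neighbour 160 nt downstream that was highest at 72 hpf, with 23.6, 40 and 13.9 CPM.

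Larger shifts were seen at neighbours with fewer tags. On the minus strand of chromosome 11, the site at 27303943 held 25.9, 25.6 and 18.9 CPM and its neighbour 298 nt upstream 4.85, 0.815 and 28.1, so the downstream share was 84.2%, 96.9% and 40.2%. The minus-strand site at 9809349 on chromosome 17 held 16.4, 12.9 and 14.1 CPM beside a downstream neighbour, 69 nt away, of 30.8, 13.8 and 2.41. On chromosome 13, the plus-strand site at 43003000 held 17.2, 12.8 and 16.6 CPM beside one 143 nt downstream of 32.6, 24.0 and 3.35. In both, the downstream end was the larger one at 24 hpf and the smaller one in the adult. At 72 hpf the downstream share was 65.2% (60.0% to 70.1%) on chromosome 13. On chromosome 17 it was 51.5% (45.3% to 57.7%), so neither end can be called the larger there. Shifts between the embryo libraries were rare and included the minus-strand site at 38117915 on chromosome 10, with 65.2, 65.3 and 94.4 CPM, whose neighbour 235 nt downstream held 3.91, 63.8 and 73.6. Its downstream share was 5.65% (3.82% to 8.02%) at 24 hpf and 49.4% (46.6% to 52.2%) at 72 hpf. At 26183349 on chromosome 8, a minus-strand site had a neighbour 912 nt downstream with 1.21, 17.1 and 1.34 CPM, high at 72 hpf alone.

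Sites on opposite strands can face each other where converging genes end. A site of the other strand lay within 100 nt of 32 constant sites (6.18%, 4.26% to 8.61%), beside 6.08% of all sites with the tag minimum, and in 11 of the 32 the transcripts overlapped (34.4%, 18.6% to 53.2%, background 27.5%). The constant site had more tags than its partner in 32 of 32 cases, and over all sites in 213 of 222. Of the 4 partners with at least 20 tags in each library, 0 were within 1.5-fold (0% to 60.2%), beside 4.26% (2 of 47) over all sites. The best counted partner lay at the same nucleotide, 46774075 on chromosome 20, where the minus-strand constant site held 35.6, 26.0 and 36.5 CPM and the plus-strand partner 11.3, 14.5 and 19.3. For the abundant chromosome 9 site at 57952806 the partner 8 nt away held 2.96, 1.12 and 2.14 CPM, a small part of its level of 952.2 CPM and above.

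Constant sites were scattered over the genome. They made up between 8.62% (10 of 116, chromosome 10) and 18.6% (32 of 172, chromosome 14) of the sites with the tag minimum on the numbered chromosomes. Of the constant sites, 246 were plus-strand (47.5%, all sites 49.5%) and 272 minus-strand sites. The median distance to the next constant site was 1598830 nt, and only 1 of 483 such distances was under 1000 nt and 49 were under 100000 nt. The next site with the tag minimum was constant in 74 of 506 cases (14.6%), close to the 14.2% of all sites. The closest 2 were minus-strand sites on chromosome 13 at 17763275 and 17763645, 370 nt apart, with 22.4, 19.9 and 16.1 CPM and 95, 98.2 and 80.3 CPM. The next closest were converging, with 2519 nt between the plus-strand site at 4038646 and the minus-strand site at 4041165 on chromosome 21, and 3407 nt between 20053280 and 20056687 on chromosome 14.

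A few constant sites had a near-equal copy, a second site with the same tag forms in nearly the same numbers, so their reads may come from either place. These were 7 of the 518. Copies are listed for constant sites only, so no share over all sites is given. The 7 sites included both copies of a minus-strand pair on chromosome 5, at 72507444 with 195.5, 142.0 and 149.7 CPM and at 72581742 with 186.0, 144.7 and 149.9. Both copies were also constant at 40372400 and 40402044 on the minus strand of chromosome 1 and at 4786376 and 4849544 on the plus strand of chromosome 22. The site just inside the limit on chromosome 25, at 30047197, had its copy at 29941850 with 71.3, 101.9 and 61.7 CPM, a ratio of 1.65 that put the copy outside. The levels of these 7 sites are uncertain for this reason.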

How the data were processed

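Each of the 3 deposited 3P-Seq files lists intervals with a strand and a whole number, read here as the authors' tag count per interval, not normalised as far as the values show. No label or header states what the number is. Tags were aligned with Bowtie to Zv9 (danRer7), per the submitters' processing notes and the file headers. The Bowtie version is not given in the sources used here. File headers give an offset of 1, which was added, and positions are 1-based. The other 13 of 16 samples were not analysed here.

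The 3′ end was the interval's end (plus) or start (minus). Per strand, positions with the most tags first absorbed others within 10 nt, and clusters of at least 4 tags were kept. Ratios have exact conditional Clopper-Pearson 95% intervals. Tags copied by PCR are not independent, so intervals are too narrow. A count of 0 allows up to 3 tags, or 0.404, 0.306 and 0.402 CPM at 24 hpf, 72 hpf and in the adult. A near-equal copy had totals within 1.1-fold and a chi-square per degree of freedom under 1.6 over its intervals. No test across samples was possible with 1 library per stage.

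Sites were named by abundance (10), flatness (10), nearness to the limit (3 on each side), uneven tandem neighbours (5 with at least 100 tags in each library, and those with at least 1000 in a library), changed leading position, number of positions and distance. The mean place of cutting, pairs with the largest shifts, uneven surroundings and opposite-strand partners were chosen after their values were seen. Members and rules were chosen with earlier results of these data known. The alternatives varied scaling, depth, clustering, tag minimum, ratio limit, intervals for tags, and the sites included. Scripts in Python 3.11.15 with numpy 2.4.6, pandas 2.3.3 and scipy 1.17.1 were tested on simulated data.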

Additional observations from a re-analysis of the deposited data

How the results depend on the processing

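Over 13 alternatives, 139 recomputed values stayed within the interval of the value reported (counts, within 1.5 times) and 30 did not; the cause was not tested. The number of constant sites was 1048 of 10071 (10.4%) with at least 20 tags in each library and 172 of 1038 (16.6%) with at least 400. The main setting gave 518 of 3649 (14.2%). It was 173 of 3649 (4.74%) where the largest CPM could exceed the smallest by 25% at most, and 1254 of 3649 (34.4%) at a limit of 2. When distinct intervals (at least 20) replaced tags it was 114 of 907 (12.6%), and 24 of those 114 (21.1%) were among the 518. How many of the 518 were among the 907 is not given here. With at least 20 tags the main position was the same at 82.7% of sites, the mean place of cutting lay further downstream at 72 hpf than at 24 hpf at 51.0%, and 4.53%, 10.7% and 9.70% of tandem pairs shifted (72 hpf against 24 hpf, adult against 72 hpf, adult against 24 hpf). With at least 400 tags it was the same at 93.0%, held a median of 87.0%, 87.9% and 87.0% of the tags (24 hpf, 72 hpf, adult), and 1.86% and 1.86% of pairs shifted against the adult. Median-ratio scaling over sites with tags in every library gave shifts of 0%, 3.60% and 3.08%, beside 0.832%, 3.43% and 3.46% over all pairs. Distinct intervals gave the same main position at 57.9%, main shares of 30.6%, 27.4% and 19.0%, and downstream cutting at 64.9%, 67.5% and 74.6% (same order of comparisons). They also gave shifts against the adult of 3.75% and 2.50%, even neighbours at 46.7% (21.3% to 73.4%) and opposite-strand sites at 3.51%. Apart from the shifts under median-ratio scaling, the same shares over all sites are not given for these settings. Changes between settings are therefore not read as traits of constant sites. The counts under the other settings lay between 429 and 526. Leaving out near-equal sites (511) or sites with under 5 intervals (510), chosen after seeing the data, moved no value. These settings dropped only 7 and 8 of the 518 sites and could hardly move a share out of its interval. Their values, counted among the 139, therefore say little about robustness. No paired analysis was possible because each stage has 1 library. Depth limits pairs and positions with few tags, and biological variation was not measured.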

Other observations

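Of the 44 sites with the tag minimum in the regions left out, 2 were also within 1.5-fold, beside 518 of the 3649 sites kept (14.2%). The difference between these shares was not tested. The minus-strand site at 25447533 on chromosome 22 held 32.3, 39.8 and 43.8 CPM at 24 hpf, 72 hpf and in the adult, a ratio of 1.35. The plus-strand site at 8451 on the mitochondrial chromosome held 15.5, 13.2 and 17.0 CPM, a ratio of 1.28.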
